A study of Camelus dromedarius with 10 samples.

Results

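Vasopressin and oxytocin are peptide hormones that magnocellular neurones (MCNs) of the supraoptic nucleus (SON) make and release, and their receptors form 1 small family of G protein-coupled receptors. 4 receptor genes were sought in the counted SON transcriptome of the dromedary camel: AVPR1A, AVPR1B, AVPR2 and OXTR. A gene was taken where the study's tables of gene names paired its symbol with an Ensembl identifier of the count table. In the copies of those tables used here, which are shortened, 1 of the 4 genes was paired, AVPR2 (ENSCDRG00005009433), out of 22444 identifiers in all. The other 3 genes, AVPR1A, AVPR1B and OXTR, were not analysed here, and nothing is said of their levels.

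AVPR2 was detected at the edge of what these libraries could count. It had 33 read pairs in all, of which 21 came from 2 control libraries, while 3 control libraries had none and all 5 libraries from water-deprived camels had a few. No change of AVPR2 with water deprivation passed the test, and the sign of the estimate depended on the scale. Around the receptor, 5 of the 111 tested genes of its signalling arms, of desensitisation, of ligand processing and of the other receptors passed the threshold, CREM, PCSK1, PAM, PCSK2 and ADRA1A, against 0.499% of all genes tested and 1.83% of the genes with a symbol. Of the 5 genes, only PCSK1 kept its call when libraries were scaled by their totals alone. All 5 kept it with DESeq2's size factors in edgeR and in DESeq2's own test. The lists were chosen with earlier results of these data known, so the share called is no test of them.

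RNA came from punches of the rostral SON of 1 side of the hypothalamus of male camels, with 1 library per camel. The 5 control camels had free access to water, and the 5 camels of the water deprivation (WD) group had none for 20 days. All were aged 4 to 5 years and housed at a ranch, per the study's methods. The punch holds every cell of the nucleus and some of its border, so that fewer cells of a type and less RNA per cell cannot be told apart.

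The family divides by the G protein that each receptor uses. AVPR2 couples to Gs, which raises cAMP through adenylyl cyclase, and is best known in the kidney collecting duct, where it brings water channels to the cell surface. AVPR1A, AVPR1B and OXTR couple to Gq, which releases calcium through phospholipase C. AVPR1A is known from blood vessels and brain, AVPR1B from pituitary corticotrophs and OXTR from the uterus, the mammary gland and the brain. Within the SON, vasopressin and oxytocin are also released from the dendrites of MCNs and act on receptors there.

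The receptors must tell apart a pair of very similar ligands, and the camel sequences of the 2 hormones are shown for that reason. Each line gives the 27 bases, 5′ to 3′, that code for the 9 residues of the hormone, read from the targets of the in situ hybridisation probes designed in the study. Capitals mark the bases that differ between the genes.
AVP: tgctacTtccagaactgcccAcGgggA
OXT: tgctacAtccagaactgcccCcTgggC
Of the 27 bases, 4 differed, each in a codon of its own, and 2 of the 9 codons coded for another amino acid. With positions counted from 1 at the first base shown and the base of AVP given first, T7A and G23T changed the amino acid and A21C and A27C did not. The 2 hormone genes themselves were not paired with an identifier, so their counts were not analysed here.

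Total counts ranged from 1665098 to 8126641 read pairs per library. In every library 5 gene identifiers took a large part of these, 27.7% to 76.1%, which left 397495 to 5872137 read pairs for all other genes. After TMM scaling, which sets libraries on 1 scale by the bulk of their genes, a single read pair was worth 1.20 CPM (counts-per-million) in control library 13 (CON13) and 0.475 CPM in WD library 6 (WD6), against 0.0864 to 0.237 CPM in the other 8 libraries. A gene with few reads is therefore least well measured in CON13 and WD6. Of the markers of MCNs, PDYN (prodynorphin) had 114 to 227 CPM in control and 439 to 761 CPM in WD libraries, and the transcription factors SIM1 and OTP had a count in all 10 libraries. VIP, a marker of the neighbouring suprachiasmatic nucleus, had 32 read pairs in all and at most 2.39 CPM, which was 2 read pairs in CON13.

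In control camels, AVPR2 had 7 read pairs in CON2 and 14 in CON3, and 0 in each of CON4, CON5 and CON13. On the CPM scale the level was 1.49 in CON2 (95% exact Poisson interval 0.601 to 3.08) and 3.31 in CON3 (1.81 to 5.56). CON4 and CON5 were the deepest control libraries, and a count of 0 allowed up to 0.344 CPM in CON4 and 0.439 CPM in CON5, taking 3 counts as the limit. CON2 and CON3 therefore stood above CON4 and CON5 by more than counting error, since their intervals did not reach the upper bounds of 0.423 and 0.540 CPM of the latter. CON13 allowed up to 3.59 CPM and was too shallow to be placed with either pair. These intervals and limits cover counting error only.

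In WD camels, AVPR2 had 1 read pair in WD6, 3 in WD7, 2 in WD8, 4 in WD9 and 2 in WD15. The corresponding levels were 0.475, 0.383, 0.307, 0.346 and 0.417 CPM. Each WD library thus had at least 1 read pair, but WD6, WD8 and WD15 had fewer than the 3 counts taken as the limit. All of the WD intervals overlapped each other and those of CON2, CON4, CON5 and CON13, the widest being that of WD6 (0.0120 to 2.64 CPM). Only the interval of WD6 overlapped that of CON3.

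**Figure D1:**
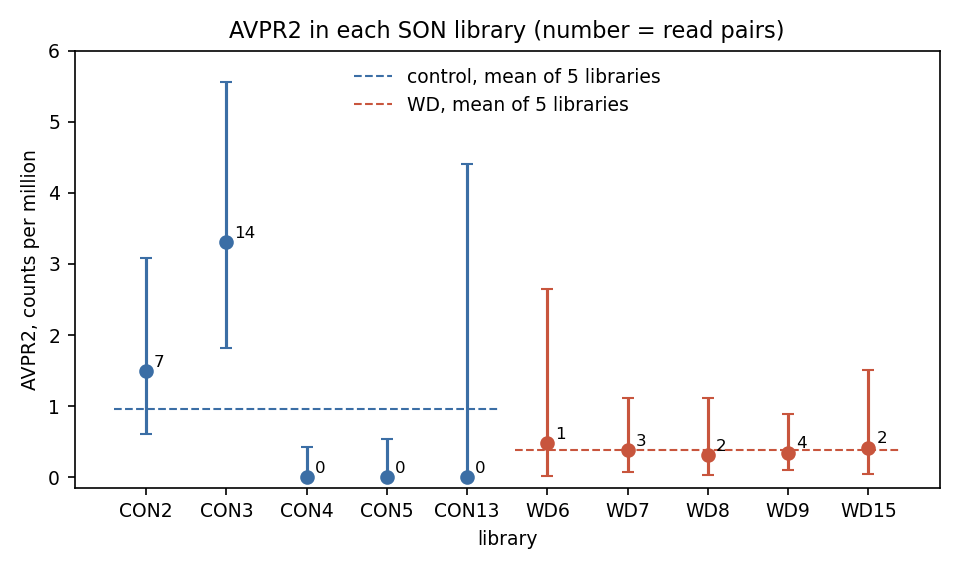
AVPR2 level in counts-per-million (vertical axis) in each of the 10 SON libraries (horizontal axis; blue, control; red, WD). Points are the levels, bars the 95% exact Poisson intervals, numbers the read pairs and dashed lines the group means. The points of CON2 and CON3 lie above those of the WD libraries, though the interval of CON2 overlaps all WD intervals. CON4, CON5 and CON13 lie at 0, and the WD libraries lie between 0.307 and 0.475 CPM.

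Control camels had a mean AVPR2 level of 0.961 ± 1.46 CPM (SD, n = 5), and the mean of WD camels was 0.385 ± 0.0645 CPM (SD, n = 5). The medians were in the opposite order, 0 CPM in control and 0.383 CPM in WD. The groups overlapped completely, the WD libraries lying inside the control range of 0 to 3.31 CPM. With the read pairs of a group added up, control had 21 at 0.830 CPM (95% exact Poisson interval 0.514 to 1.27) and WD had 12 at 0.366 CPM (0.189 to 0.639), and these intervals overlapped. The pooled intervals cover counting error only and leave out the spread between camels. Of the 21 read pairs of the control group, 14 were from CON3 alone.

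AVPR2 did not pass the filter on low counts, so its test was taken from the same edgeR fit with no filter, over 21986 identifiers with a count. The log2 fold change (LFC) of WD over control was -1.33 (standard error 1.15, padj = 0.80, edgeR quasi-likelihood test with Benjamini-Hochberg adjustment). DESeq2's Wald test gave an LFC of -1.41 (standard error 1.28) and no adjusted p, as its independent filter set the gene aside. Without CON3 the LFC was -0.06 (padj = 0.997, edgeR), so that 1 library carried nearly all of the difference. Log2 CPM, computed with a prior count of 0.5, averaged -1.64 ± 2.63 (SD, n = 5) for the control group and -1.10 ± 0.20 (SD, n = 5) for the WD group. This is a difference of 0.54 in the other direction (two-sided exact permutation test over all assignments of the 10 libraries to the groups, p = 0.643). With a prior count of 2 the difference was -0.09 (exact permutation p = 0.786), and on the CPM scale, an alternative chosen after seeing the data, it was -0.576 CPM (exact permutation p = 0.476). No change of AVPR2 passed a test in either direction, with a spread between control libraries that went beyond counting error.

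For comparison with the test over all genes, 72 of the 14432 genes that passed the filter were past the threshold of padj 0.05 in edgeR (0.499%), 39 higher (0.27%) and 33 lower (0.229%) in WD. DESeq2 called 209 of 16447 (1.27%). The control and WD libraries did not overlap in CPM for 378 of the 14432 genes (2.62%). When libraries were scaled by their totals alone, 10 genes were called, 7 higher and 3 lower, and the median LFC of all genes was 0.16 against 0.02 with TMM.

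The level of AVPR2 across the 10 libraries was compared with depth and with RNA integrity (RIN), the 2 library properties considered. With the read pairs counted outside the 5 dominant identifiers, Pearson's r of log2 CPM was -0.139 (permutation p = 0.704) and Spearman's rho was -0.362 (permutation p = 0.305). With RIN, r was -0.241 (permutation p = 0.50) and rho was -0.277 (permutation p = 0.438). After Benjamini-Hochberg adjustment over these 4 tests, the smallest permutation p was 0.667. Leaving out the 2 libraries farthest from the median of the x axis gave r = -0.661 for depth (without WD9 and CON13) and r = -0.295 for RIN (without WD15 and WD8). Within groups, rho with depth was -0.335 in control and -0.7 in WD, and rho with RIN was -0.287 in control and -0.1 in WD, each over 5 libraries. No relation passed its test.

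Some sums of marker genes also set CON2 and CON3 apart from the other control libraries. The summed level of the 2 paired oligodendrocyte markers of 6 listed (OLIG2 and SOX10) was 94.8 CPM in CON2 and 52.8 CPM in CON3, against 40.0 to 46.6 CPM in the other 3 control libraries and 31.5 to 79.3 CPM in WD. In CON3 that sum was carried by SOX10 (49.2 CPM), while OLIG2 had 3.55 CPM, the lowest of the 10 libraries. The 7 microglial markers, all paired, summed to 450 CPM in CON2 and 280 CPM in CON3, against 282 to 303 CPM in the other control libraries, so that CON2 alone was high. The 4 paired markers of MCNs of 8 listed (PDYN, SIM1, OTP and CREB3L1) summed to 196 CPM in CON2 and 239 CPM in CON3, below the 293 to 339 CPM of the other control libraries. Without PDYN the sum was 73.2 CPM in CON2 and 125 CPM in CON3 against 112 to 142 CPM in the others, so that CON2 alone was low. The 1 paired astrocyte marker of 6, ALDH1L1, had 21.3 CPM in CON2 and 27 CPM in CON3 against 17.6 to 19.1 CPM in the others. The 1 paired neuronal marker of 6, GAD1, which marks GABAergic neurones, had 16.2 CPM in CON2 and 11.6 CPM in CON3, among the 10.8 to 15.5 CPM of the others for CON3 and above them for CON2. The 3 paired endothelial markers of 6 listed summed to 149 CPM in CON2 and 84.9 CPM in CON3, and the other control libraries lay between these values. VIP had 10 of its 32 read pairs in CON3 (2.37 CPM), against 0.427 CPM in CON2, 0.344 CPM in CON4 and 0.439 CPM in CON5. In CON13 it had 2.39 CPM, from 2 read pairs. The part of any of these cells, or of neighbouring tissue, in the AVPR2 counts of CON2 and CON3 was not tested. No marker of the kidney collecting duct, the usual site of AVPR2, was paired. In the RefSeq gene table of the assembly mCamDro1.pat, ARHGAP4 and L1CAM neighbour AVPR2. Neither was paired with an identifier, and whether reads of a neighbour were counted as AVPR2 was not tested.

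Among G protein-coupled receptors AVPR2 stood low by total count. The study's list of receptors paired 121 others with an identifier, and 22 of these had fewer read pairs in total than AVPR2 and 99 had more. Their median was 105 read pairs and the highest, ADCYAP1R1, the receptor of the neuropeptide PACAP, had 18683. Of the 121, 68 had a count in all 10 libraries and 63 passed the filter on low counts. Totals are not divided by transcript length, so they are a statement on detection and not an order of expression levels.

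**Figure D2:**
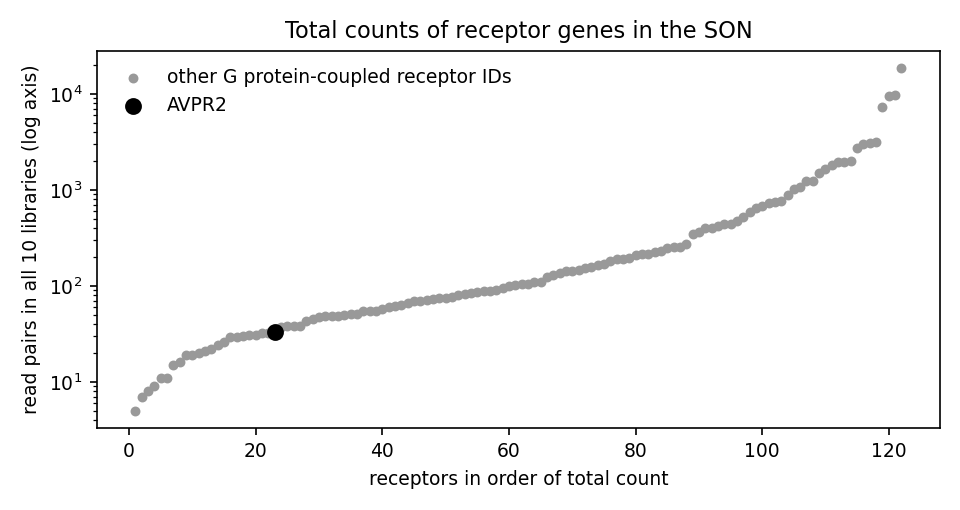
Read pairs summed over the 10 libraries (vertical axis, log scale) for AVPR2 (black) and the 121 other G protein-coupled receptors paired with an identifier (grey), in order of total count (horizontal axis). AVPR2, with 33 read pairs, lies near the low end, with 22 receptors below it.

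The pattern of AVPR2 zeros, 0 in 3 or more control libraries with a count in every WD library, was looked for elsewhere after its values were seen. It was met by 69 of the 21986 identifiers with a count (0.314%), whatever their total count. It was met by 1 of the 121 other receptors, BDKRB1, a bradykinin receptor. BDKRB1 had 5, 0, 2, 0 and 0 read pairs in CON2, CON3, CON4, CON5 and CON13 and 1 to 4 in the WD libraries. Of the 121, 9 had 0 in 3 or more control libraries. How common the pattern is among identifiers with as few read pairs as AVPR2 was not tested.

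The genes whose log2 CPM was most like that of AVPR2 were sought among 3392 genes with a symbol that passed the filter, over 10 libraries that share condition and depth. The highest Pearson's r belonged to MYPOP (0.884), EZH2 (0.837), ZNF697 (0.823), PKDCC (0.816) and LOXL2 (0.789). EZH2 is a histone methyltransferase, LOXL2 a lysyl oxidase of the extracellular matrix and PKDCC a secreted kinase. The lowest belonged to ZNF774 (-0.888), CERS5 (-0.837), FAAH2 (-0.802), GSTO1 (-0.80) and ZBTB43 (-0.781). CERS5 is a ceramide synthase, FAAH2 a fatty acid amide hydrolase and GSTO1 a glutathione transferase. Over all 3392 genes the median r was 0.038, with 90% of genes between -0.462 and 0.539.

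These likenesses rested on the split within the control group. LOXL2 had 4.27 to 6.62 CPM in CON2 and CON3 against 0 to 0.918 CPM in the other 3 control libraries. GSTO1 had 6.86 to 8.11 CPM in CON2 and CON3 against 12.6 to 13.9 CPM in the others. None of the 10 genes differed between WD and control past the threshold, their padj lying between 0.797 and 0.989 (edgeR). With DESeq2's regularized log in place of log2 CPM, 5 of the 10 genes stayed among the top 5 at their end, and so did 5 with values centred on the group mean.

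The Gs arm, through which AVPR2 signals, was well counted although the receptor was not. Of 25 listed genes 24 were paired and all 24 were tested, with 165 to 6658 read pairs each. CREM was the 1 gene past the threshold (higher in WD), against 0.499% of all genes tested and 1.83% of the genes with a symbol, which are richer in called genes. The median LFC of the list was 0.02, that of all genes 0.02, and 12 genes lay above 0 and 12 below.

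CREM encodes a transcription factor that responds to cAMP, 1 product of which represses cAMP-responsive genes. It had 8.11, 6.39, 5.85, 6.73 and 1.20 CPM in CON2, CON3, CON4, CON5 and CON13, and 24.7, 22.4, 15.1, 25.7 and 19.4 CPM in WD6, WD7, WD8, WD9 and WD15. Every WD library lay above every control library, and CON13 had the lowest level, from 1 read pair. The control mean was 5.66 ± 2.63 CPM (SD, n = 5), the WD mean 21.4 ± 4.31 CPM (SD, n = 5), the LFC 1.77 (standard error 0.27, padj = 0.00313, edgeR), and the call held with each library left out. The next genes of the arm by p were ADCY8, a calcium-stimulated adenylyl cyclase (LFC 0.71, padj = 0.102, edgeR), and PRKAR1B, a regulatory subunit of protein kinase A (LFC -0.58, padj = 0.454, edgeR). ADCY8 lay at 28.0 to 42.0 CPM in control and 49.5 to 65.2 CPM in WD with no overlap, and was past the threshold in DESeq2 (padj = 0.0113) but not in edgeR. The other adenylyl cyclases, the catalytic subunits of protein kinase A, the PDE4 phosphodiesterases and the cAMP-regulated exchange factors RAPGEF3 and RAPGEF4 did not pass the threshold in edgeR.

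The Gq and calcium arm, through which AVPR1A, AVPR1B and OXTR signal, had 13 of 17 genes considered paired and tested. In edgeR 0 of the 13 passed the threshold, against 0.499% of all genes tested and 1.83% of the genes with a symbol. An unadjusted p under 0.05 in edgeR was found for 8 (3 higher and 5 lower), against 9.31% of all genes tested. DESeq2 called 1, CAMK2A, against 1.27% of all genes that DESeq2 tested. The median LFC was 0.01, with 7 genes above 0 and 6 below.

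CAMK2A encodes the alpha subunit of calcium/calmodulin-dependent kinase II. It had 89.7, 86.3, 88.4, 87.2 and 68.2 CPM in CON2, CON3, CON4, CON5 and CON13, and 62.2, 49.4, 46.9, 46.0 and 28.8 CPM in WD6, WD7, WD8, WD9 and WD15. The groups did not overlap, CON13 being the lowest control library and WD6 the highest WD library. The LFC was -0.87 (standard error 0.19), at the edge of the threshold (padj = 0.0501 in edgeR, 5.90e-04 in DESeq2), and the edgeR call was made without CON13 (padj = 0.0498) or without WD6 (padj = 0.0122). PRKCE, the epsilon isoform of protein kinase C, had 53.1 to 74.7 CPM in control and 27.9 to 50.3 CPM in WD (LFC -0.55, padj = 0.321, edgeR). PLCB4, a phospholipase C that Gq activates, had 28.7 to 44.4 CPM in control and 17.3 to 33.2 CPM in WD, with overlap (LFC -0.55, padj = 0.366, edgeR).

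Of the genes that end receptor signalling, 5 of 7 listed were paired, the kinases GRK2, GRK3, GRK4, GRK5 and GRK6, which phosphorylate active receptors. None of the 5 passed the threshold in edgeR or in DESeq2, against 0.499% and 1.27% of all genes that each tested. In edgeR 0 had an unadjusted p under 0.05, against 9.31% of all genes tested. With so few genes, counts of 0 say little. The smallest p was that of GRK6 (LFC 0.42, padj = 0.605), followed by GRK4 (LFC 0.28, padj = 0.866) and GRK2 (LFC 0.13, padj = 0.877), all by edgeR. With each library left out, the LFC ran from 0.30 to 0.58 for GRK6, 0.03 to 0.43 for GRK4 and 0.02 to 0.19 for GRK2. The median LFC of the list was 0.13.

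Of 8 genes of the ligands, their processing and their breakdown, 6 were paired. Of the 6, 3 passed the threshold, 2 higher and 1 lower, against 0.499% of all genes tested and 1.83% of the genes with a symbol. The list was chosen with earlier results of these data known, and the study had named PCSK1 and PCSK2 as changed. Its share of calls is therefore no test of the list. PCSK1, a proprotein convertase that cuts prohormones, had 161, 237, 259, 285 and 194 CPM in CON2, CON3, CON4, CON5 and CON13, and 785, 1206, 642, 1187 and 794 CPM in WD6, WD7, WD8, WD9 and WD15. The lowest WD library, WD8, lay far above the highest control library, CON5 (LFC 2.02, standard error 0.22, padj = 2.49e-04, edgeR). PAM, the enzyme that amidates the end of both hormones, had 102 to 172 CPM in control and 308 to 690 CPM in WD (LFC 1.63, padj = 0.00313, edgeR). PCSK2, the other convertase of the list, went the opposite way, from 25.1 to 84.6 CPM in control to 9.79 to 23.4 CPM in WD (LFC -1.53, standard error 0.28, padj = 0.0144, edgeR). The groups did not overlap for any of these 3 genes, as for 2.62% of all genes tested, and without WD8 the padj of PCSK2 was 0.0538 (edgeR). LNPEP, the membrane aminopeptidase known as oxytocinase, had an LFC of 0.49 (padj = 0.630, edgeR), the carboxypeptidase CPE 0.34 (padj = 0.694, edgeR) and the transcription factor CREB3L1 -0.27 (padj = 0.938, edgeR).

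**Figure D3:**
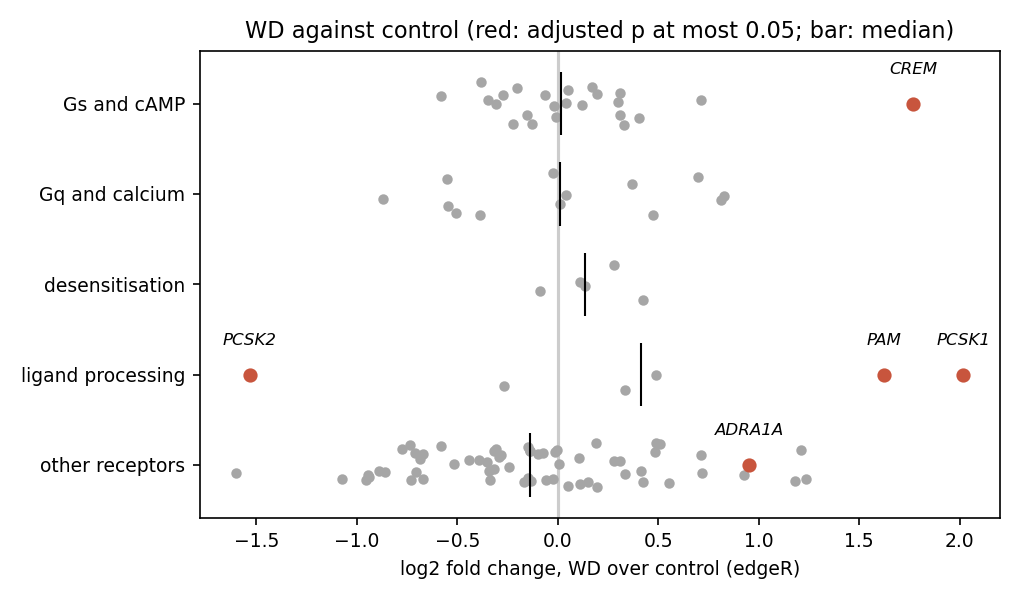
Log2 fold change of WD over control in edgeR (horizontal axis) for the tested genes of each list (vertical axis). Each point is a gene, red where padj is at most 0.05, and the black bar is the list's median. The medians lie between -0.14 and 0.41, and the 5 red points are CREM, PCSK1, PAM, PCSK2 and ADRA1A.

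Of the 63 other receptors tested, 1 passed the threshold (1.59%, against 0.499% of all genes tested and 1.83% of the genes with a symbol), ADRA1A, an alpha-1 adrenergic receptor that couples to Gq like AVPR1A. It lay at 15.9 to 22.7 CPM in control and 27.5 to 44.0 CPM in WD with no overlap (LFC 0.95, standard error 0.19, padj = 0.0241, edgeR). The call was lost without CON2, CON3, CON4, CON5, WD7 or WD9 (padj 0.0721 to 0.106, edgeR). The next by p were OPRL1, the nociceptin receptor (LFC -0.94, padj = 0.0683), GABBR2, a subunit of the GABA-B receptor (LFC -0.77, padj = 0.139), GLP1R, the receptor of glucagon-like peptide 1 (LFC 1.21, padj = 0.192), and ADCYAP1R1 (LFC -0.58, padj = 0.194), all by edgeR. DESeq2 called 4 receptors, against 1.27% of all genes that DESeq2 tested, and the number of receptors it tested is not given here. ADRA1A was higher, and OPRL1 (padj = 0.00550), GABBR2 (padj = 0.0305) and ADCYAP1R1 (padj = 0.00578) were lower, all by DESeq2. For these 3 the groups did not overlap, as for 2.62% of all genes tested in edgeR. The median LFC of the 63 receptors was -0.14, against 0.02 over all genes tested, with 23 receptors above 0 and 40 below. AVPR2, at an LFC of -1.33, was not among the 63. The list is shortened and lacks CCKAR, a receptor of cholecystokinin that the study reported as raised by WD.

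**Figure D4:**
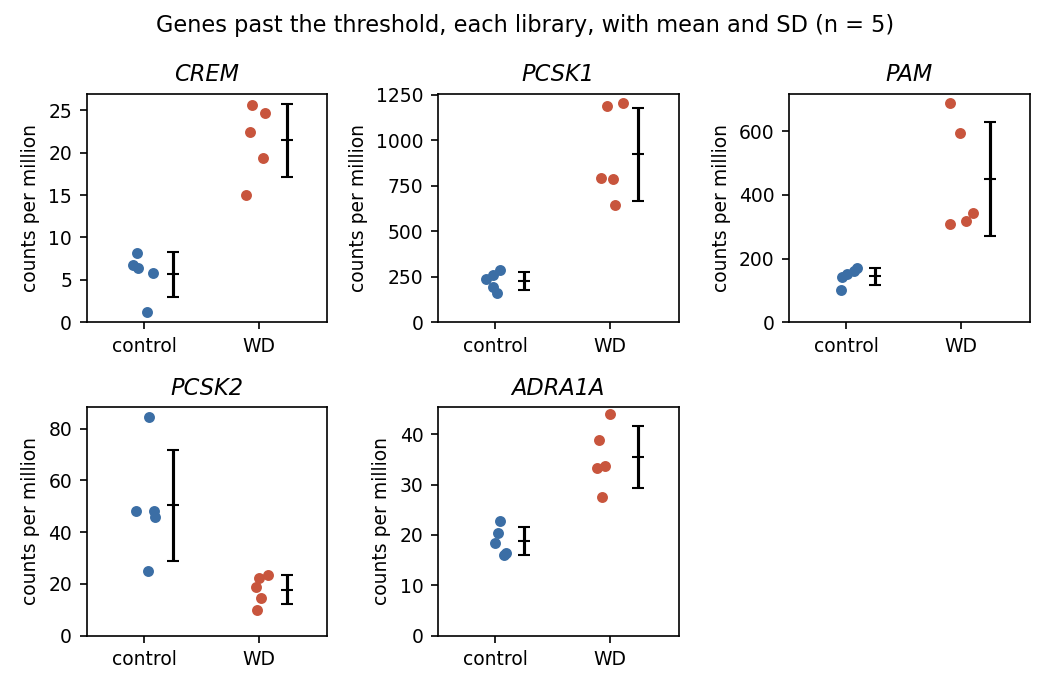
Level in counts-per-million (vertical axis, from 0) of the 5 named genes past the threshold in control (blue) and WD (red) libraries. Points are libraries, bars the mean and SD of 5 libraries. In all 5 panels the groups do not overlap, as for 2.62% of all genes tested, with PCSK2 in WD9 (23.4 CPM) just below CON13 (25.1 CPM).

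With libraries scaled by their totals alone, PCSK1 kept its call (padj = 0.0259, edgeR), while CREM, PAM, PCSK2 and ADRA1A kept folds of similar size and lost theirs. In that edgeR fit the LFC was 1.88 for CREM (padj = 0.155), 1.83 for PAM (padj = 0.178), -1.41 for PCSK2 (padj = 0.724) and 1.12 for ADRA1A (padj = 0.99998). All of these genes, PCSK1 included, kept their calls in edgeR with DESeq2's size factors and with the dominant identifiers left out, and in DESeq2.

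Markers of other cells were compared in the same fit. All 7 listed markers of microglia were paired and had an LFC above 0 with an unadjusted p under 0.05, against 9.31% of all genes tested in either direction. None of the 7 passed the threshold in edgeR, the smallest padj being that of C1QB (0.0707, edgeR). The study reported C1QB as raised by WD in its RNAseq and in qRT-PCR. The summed level of the 7 markers was 280 to 450 CPM in control and 352 to 1198 CPM in WD. The summed level of the 4 paired markers of MCNs was 196 to 339 CPM in control and 528 to 884 CPM in WD. PDYN was the 1 of the 4 past the threshold in edgeR, against 0.499% of all genes tested and 1.83% of the genes with a symbol. Without PDYN the sum was 73.2 to 142 CPM in control and 70.8 to 124 CPM in WD, the LFC being below 0 for SIM1 (-0.04, padj = 0.973), OTP (-0.58, padj = 0.454) and CREB3L1 (-0.27, padj = 0.938), all by edgeR. The astrocyte marker ALDH1L1 had an unadjusted p under 0.05 and lay at 17.6 to 27 CPM in control and 25.5 to 42.2 CPM in WD (LFC 0.55, padj = 0.390, edgeR). Of the 3 endothelial markers 2 had an unadjusted p under 0.05 and an LFC above 0, and the sum was 84.9 to 149 CPM in control and 107 to 219 CPM in WD. The part of these cells in the changes of CREM, the ligand-processing genes and ADRA1A was not tested.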

How the data were processed

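The authors merged and trimmed the paired reads, aligned them with STAR to the dromedary genome Camdro2 and counted read pairs per Ensembl gene with featureCounts. The deposited raw counts were the values used. A further table deposited by the authors holds a signal normalized with DESeq2, the raw counts divided by 1 size factor per library, and it served as a check of those factors. The strand setting of the counting and the annotation release are not given in the sources used here.

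All tests were run on raw counts of 10 libraries, 5 control and 5 WD. The main test was edgeR's quasi-likelihood test (edgeR 4.0.16 in R 4.3.3, TMM, filterByExpr, robust), with Benjamini-Hochberg adjustment and a threshold of padj 0.05, and it was tested on simulated data. DESeq2 1.42.0 was an alternative. CPM used TMM library sizes, and log2 CPM a prior count of 0.5. Exact tests and intervals used scipy. No pair of libraries from the same group agreed within sampling noise. Symbols were paired for 4351 identifiers. Column values of the authors' own comparisons were not used. RIN and fragment size entered as covariates from the study's quality table.

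The receptors and the lists were chosen with earlier results of these data known. Named were every receptor with an identifier, list genes past the threshold, the 3 genes of smallest p in a list with fewer than 3 such genes (5 for the other receptors), and the 5 genes at each end of the likeness to AVPR2. Named outside this rule, after their values were seen, were BDKRB1, the markers and the remaining paired genes of the short lists. Of the Gq list, 1 gene is not reported here and is left out of its counts. Alternatives were another scaling, filter or test, covariates, and each library left out.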

Additional observations from a re-analysis of the deposited data

Results flagged for a closer look

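Within each group of 5 libraries, the highest and lowest log2 CPM of AVPR2, of the named list genes and of the genes most and least like AVPR2 were compared with the others by Dixon's ratio of the gap to the range. Of 56 groups, 4 exceeded the 95% critical value, while chance alone flags about 1 group in 20. AVPR2 was not among them. CREM was low in CON13 (1.20 CPM against 5.85 to 8.11 CPM in the other control libraries, ratio 0.826). CAMK2A was low in CON13 (68.2 CPM against 86.3 to 89.7 CPM, ratio 0.863). ADCYAP1R1 was low in WD15 (192 CPM against 260 to 285 CPM, ratio 0.762). EZH2 was high in WD8 (7.37 CPM against 4.27 to 4.93 CPM, ratio 0.740). Of these values, 2 came from CON13, the library in which a read pair weighs most.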

How the results depend on the processing

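The LFC of AVPR2 stayed below 0 and short of the threshold in every setting run, between -1.70 and -0.06 with each library left out and -1.56 without CON13 and WD6, a pair left out after seeing the data. Filters on low counts gave no value for it. The difference of its mean log2 CPM ran from 0.07 to 1.39 with each library left out and reversed to -0.0858 with a prior count of 2 and to -0.576 on the CPM scale. The correlation of AVPR2 with depth ran from -0.491 to 0.00826, the latter without CON4, and that with RIN from -0.503 to -0.112. Of the 10 genes most and least like AVPR2, 5 remained with the regularized log, 5 with group-centred values, and 1 to 8 with each library left out. The count of 72 genes past the threshold became 10 with library totals and 209 with DESeq2, was 104 with RIN as a covariate (70 higher and 34 lower, against 39 and 33), and ran from 40 (without CON3) to 102 (without WD6); it was 42 without CON5. With library totals, 0 genes of the Gs arm, 1 of the ligand list and 0 other receptors were called, PCSK1 (padj = 0.0259, edgeR) being the one left. With at least 10 counts in every library CREM was not tested, which left 0 in the Gs arm, and DESeq2 called 2. The Gq arm, with 0 called genes in the main setting, had 1, CAMK2A (lower), with DESeq2's size factors, with at least 10 counts in every library, with DESeq2, without robust fitting, with fragment size as a covariate and without CON13 and WD6, and 0 to 1 with each library left out. The other receptors had 4 with DESeq2 (1 higher and 3 lower), 2 with RIN as a covariate, 2 without CON13 and WD6, and 0 to 2 with each library left out. The Gs arm had 1 called gene, the desensitisation list 0 and the ligand list 2 to 3 with each library left out. GRK2 reversed to -0.00626 without CON13 and WD6. Where a cause is not named, the cause was not tested. No paired analysis was possible because the groups share no replicate numbers. AVPR2 rests on 33 read pairs, and p-values measure the spread between these camels only.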
